A study of Mus musculus with 63 samples.

Results

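Ccn1, Ccn2, Apold1, Klf2, Klf4 and Btg2 are early response genes, most of them known best from blood vessels, and their messenger RNA was measured in 63 libraries of mouse dorsal hippocampus. The 6 genes were named in advance by symbol out of 55401 genes in the count table, with earlier results of these libraries in view, and all 6 were among the 19974 genes that passed the filter on low counts. The ethanol difference in DBA/2J mice and the conditioning difference in C57BL/6J mice rank several of them high and are treated as having chosen them, so both are described without a test. Adolescent male and female mice of the inbred strains C57BL/6J (31 libraries) and DBA/2J (32 libraries) had received an injection of ethanol (EtOH) at 1.5 g/kg or of saline, and had undergone fear conditioning (FC) or a control procedure without it (noFC). This gave 16 groups of 4 libraries, except for conditioned C57BL/6J males given saline, with 3. The labels do not give the time between injection, conditioning and dissection, nor the mice's exact age, and neither strain carried an introduced allele. They do not say whether 1 library is 1 mouse, so the p-values measure the spread between libraries.

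Early response genes are transcribed within minutes of a stimulus from factors already present in the cell. Ccn1 and Ccn2 encode secreted matrix proteins that bind integrins, and both are textbook targets of YAP and TEAD, the transcription factors of the Hippo pathway. Apold1 encodes a protein of endothelial cells that is induced by injury and lack of oxygen. Klf2 and Klf4 encode zinc finger transcription factors that blood flow induces in endothelium, where they restrain clotting and inflammation. Btg2 encodes an antiproliferative protein that promotes removal of the poly(A) tail of messenger RNA, and it is induced by DNA damage in many cells and by activity in neurons. Apart from vessels, Ccn2 is a known marker of subplate neurons, the deepest layer of the neocortex.

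In the GRCm38 assembly Ccn1 (ENSMUSG00000028195) lies on chromosome 3 from 145646976 to 145649981 on the minus strand. Ccn2 (ENSMUSG00000019997) lies on chromosome 10 from 24595442 to 24598683 on the plus strand, and the gene Gm15270 overlaps it on the other strand, which a stranded library can keep apart. Apold1 (ENSMUSG00000090698) lies on chromosome 6 from 134981718 to 134986836 on the plus strand, and Klf2 (ENSMUSG00000055148) on chromosome 8 from 72319033 to 72321656 on the plus strand. Klf4 (ENSMUSG00000003032) lies on chromosome 4 from 55527143 to 55532466 on the minus strand, and Btg2 (ENSMUSG00000020423) on chromosome 1 from 134075170 to 134079120 on the minus strand.

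The sequences directly before the transcription start of 4 of the genes are shown because Klf2 and Klf4 were the pair whose levels moved together most closely between libraries, and because Ccn1 and Btg2 were the members with the smallest p for conditioning averaged over both strains. They come from RefSeq (GRCm38.p6), run 5′ to 3′ on the gene's strand, and carry in capitals the motifs that were searched, each on both strands. These were GGGCGG, the GC box to which factors of the Sp and Kruppel-like families bind, and GGAATG, the motif of the TEAD factors. The cyclic AMP response element (CRE), bound by CREB in active neurons, was searched as TGACGTCA in full. Its short form, which lies inside the full one, was searched as TGACG wherever it stood. For AP-1, the dimer of Fos and Jun proteins, the letters were TGANTCA in either direction. A TATA box, which places the start of transcription, was searched as TATAAA in the same windows. The MEF2 motif and the CArG box of serum response factor completed the set.
Ccn1 (chr3:145649986-145650235, minus strand): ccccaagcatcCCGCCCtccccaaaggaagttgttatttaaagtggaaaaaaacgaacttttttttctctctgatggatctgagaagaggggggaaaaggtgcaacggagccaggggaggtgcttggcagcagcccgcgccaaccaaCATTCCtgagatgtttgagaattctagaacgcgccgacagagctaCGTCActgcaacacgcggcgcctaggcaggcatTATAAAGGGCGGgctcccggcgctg
Klf2 (chr8:72318812-72319032, plus strand): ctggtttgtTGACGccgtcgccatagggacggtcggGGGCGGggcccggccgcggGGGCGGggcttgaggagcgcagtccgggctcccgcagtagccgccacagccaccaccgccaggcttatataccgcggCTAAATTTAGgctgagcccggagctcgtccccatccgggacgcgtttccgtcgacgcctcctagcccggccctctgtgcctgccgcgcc
Klf4 (chr4:55532476-55532725, minus strand): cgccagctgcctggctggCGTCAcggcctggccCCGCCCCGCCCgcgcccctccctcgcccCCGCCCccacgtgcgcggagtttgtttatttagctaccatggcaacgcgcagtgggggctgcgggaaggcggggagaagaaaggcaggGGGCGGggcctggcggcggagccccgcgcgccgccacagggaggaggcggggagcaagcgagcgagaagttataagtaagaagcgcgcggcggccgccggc
Btg2 (chr1:134079156-134079405, minus strand): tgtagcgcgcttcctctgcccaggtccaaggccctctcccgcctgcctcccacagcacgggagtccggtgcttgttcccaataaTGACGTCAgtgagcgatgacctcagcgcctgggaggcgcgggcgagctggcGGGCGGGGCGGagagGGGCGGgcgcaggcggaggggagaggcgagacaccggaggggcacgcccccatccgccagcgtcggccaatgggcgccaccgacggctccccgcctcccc
The Ccn1 window held a TATA box 25 bases before the start, the short CRE form 58 bases before it, a TEAD motif on the reverse strand 103 bases before it, and GC boxes at 19 and 239 bases. The Klf2 window, cut to 221 bases where the GENCODE gene model begins, held the short CRE form 241 bases before the RefSeq start, GC boxes at 214 and 195 and a MEF2 motif at 118. The Klf4 window held the short CRE form at 232 and GC boxes at 217, 212, 189 and 101. The Btg2 window alone of these 4 held the full CRE, 166 bases before the start, with 2 short forms inside it, and GC boxes at 115, 110 and 100. None of the 4 windows held a CArG box or an AP-1 motif. Over 32851 RefSeq promoters cut to 250 bases, a GC box was present in 32.7%, the short CRE form in 17.8%, the TEAD motif in 12.6%, the TATA box in 12.4%, the AP-1 motif in 6.75%, the MEF2 motif in 2.92%, the full CRE in 1.55% and the CArG box in 1.47%.

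Gene counts summed to between 21027659 and 61631742 per library (median 26379948). Levels are given as CPM, counts relative to the library's total, with the total scaled by the trimmed mean of M values (TMM). Markers of hippocampal neurons summed to 1700–2699 CPM, and those of endothelium (382–515 CPM) and of mural cells, the pericytes and smooth muscle of vessels (236–364 CPM), were also present throughout. Choroid plexus markers ranged from 37.2 to 12845 CPM, meningeal and fibroblast markers from 29.6 to 203 CPM, and neocortex and subplate markers from 99.6 to 235 CPM. No marker of these lists was at 0 in any library. In bulk tissue, fewer cells of a type cannot be told apart from less RNA per cell.

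**Figure D1:**
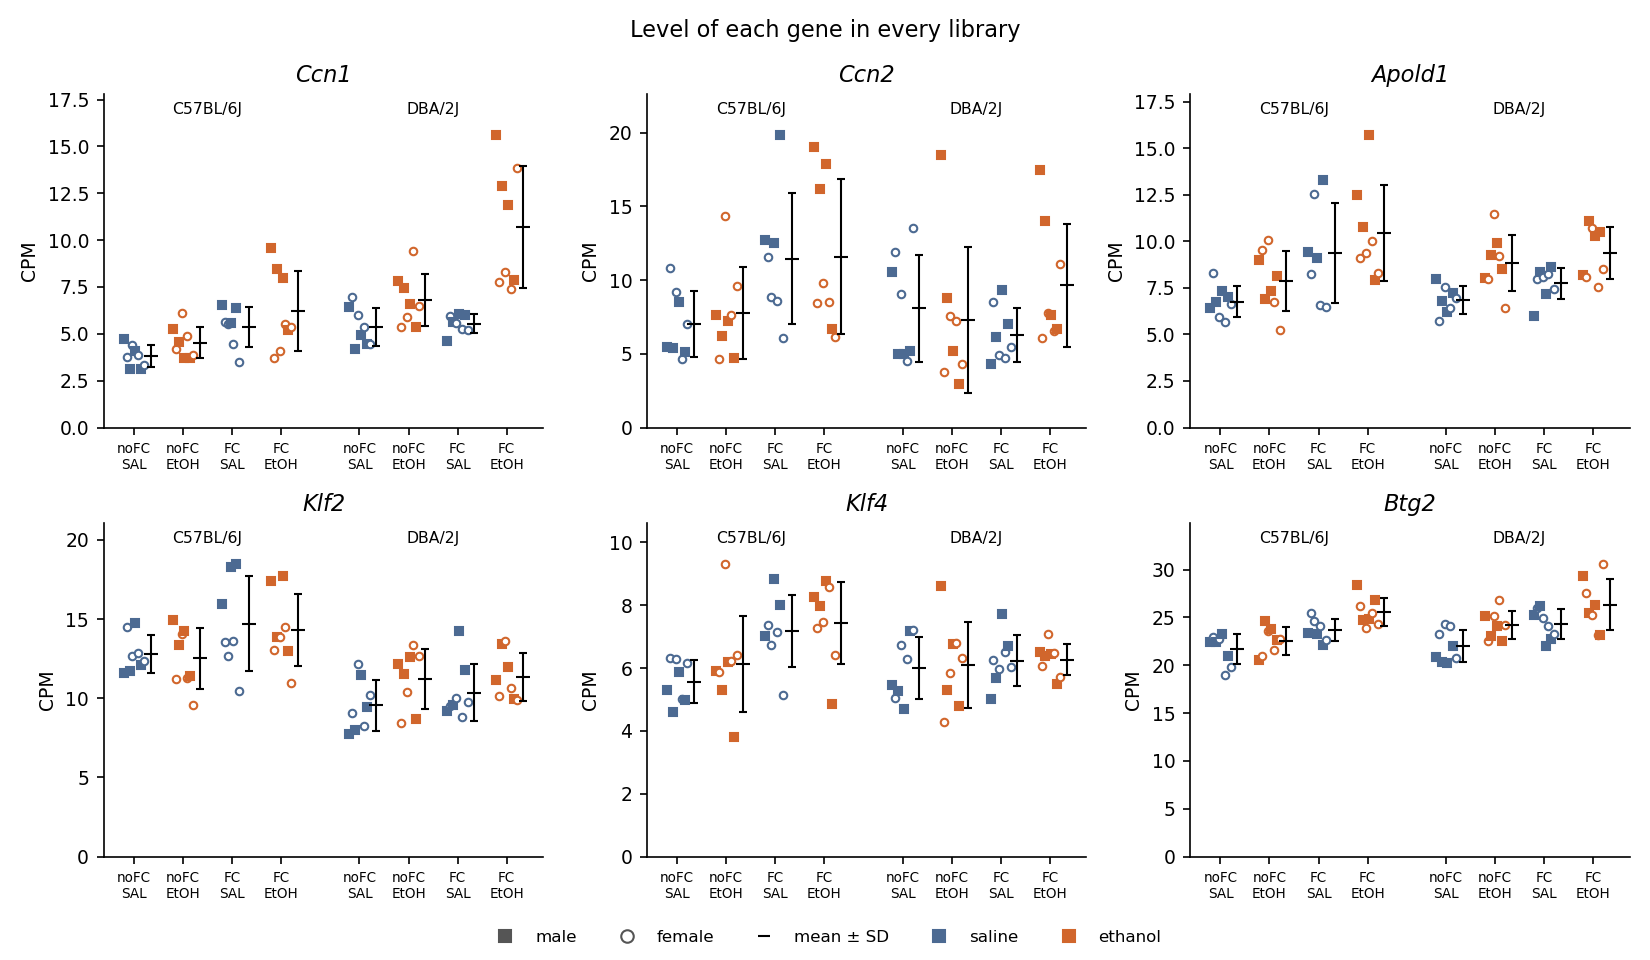
CPM of each gene in every library (points; squares are males, circles females, blue saline, orange ethanol), grouped by strain, conditioning (FC, noFC) and drug, with mean ± SD as black bars; n = 8 per column, 7 for conditioned C57BL/6J given saline. The Ccn1 levels of conditioned DBA/2J given ethanol, 7.40–15.6 CPM, lie above all 8 of the saline libraries beside them. How many of all genes tested separate in this way was not determined.

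The 6 genes lay between the 40.2 and the 70.9 percentile of level per kilobase among the genes tested. Per kilobase of transcript, Btg2 was highest at 8.67 ± 0.819 CPM per kb (SD, n = 63) and Klf2 next at 6.53 ± 1.35 CPM per kb. Ccn2 (3.0 ± 1.43), Ccn1 (3.0 ± 1.24), Apold1 (2.36 ± 0.561) and Klf4 (2.08 ± 0.388 CPM per kb) followed, and the ranges of these 4 over the libraries overlapped. Their means were not compared by a test. The genes differed more in how steady they were: the SD of log2 CPM between libraries of the same group was 0.56 for Ccn2, 0.29 for Ccn1, 0.26 for Apold1, 0.24 for Klf4, 0.21 for Klf2 and 0.10 for Btg2. Among the 200 genes closest in level, only 3 varied more than Ccn2, while 123 varied more than Btg2.

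The strains differed in Ccn1 and Klf2, in opposite directions. Ccn1 ranged from 3.10 to 9.56 CPM (median 4.54) in C57BL/6J and from 4.18 to 15.6 CPM (median 6.05) in DBA/2J. Of the 32 DBA/2J libraries 29 lay above the C57BL/6J median, and the means were 7.10 ± 2.81 (SD, n = 32) and 4.98 ± 1.56 CPM (SD, n = 31). The log2 difference, DBA/2J minus C57BL/6J, was 0.48 (SE 0.07, edgeR quasi-likelihood test, Benjamini-Hochberg adjusted p = 1.1e-07). It includes the DBA/2J ethanol libraries, whose high Ccn1 is treated as having chosen the gene, so this p-value is not independent of that choice. Klf2 ranged from 9.55 to 18.5 CPM (median 13.4) in C57BL/6J and from 7.74 to 14.3 CPM (median 10.2) in DBA/2J, where 3 of 32 libraries exceeded the C57BL/6J median. It was lower in DBA/2J by a log2 difference of -0.36 (SE 0.05, edgeR adjusted p = 3.9e-08). So 2 of the 6 genes passed the test, beside 50.0% of all genes tested, which is no larger a share than the background.

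The other members did not pass between the strains: Ccn2 differed by -0.25 (SE 0.14, edgeR adjusted p = 0.12), Klf4 by -0.09 (adjusted p = 0.24), Apold1 by -0.06 (adjusted p = 0.44) and Btg2 by 0.05 (adjusted p = 0.087). Because the DBA/2J libraries include the ethanol groups in which Ccn1 was high, the strain difference was also read from the saline libraries of the same model. There Ccn1 was 5.45 ± 0.781 CPM (n = 16) in DBA/2J and 4.54 ± 1.15 CPM (n = 15) in C57BL/6J, a log2 difference of 0.26 (SE 0.10, edgeR adjusted p = 0.047), smaller than over all libraries and still past the threshold. Klf2 kept a difference of -0.48 (SE 0.07, edgeR adjusted p = 3.5e-07), and 37.0% of all genes passed in saline libraries. Among ethanol libraries the differences were 0.70 (SE 0.10) for Ccn1 and -0.24 (SE 0.07) for Klf2. Neocortex and subplate markers, a list added after values were seen, also stood higher in DBA/2J. Of them 5 of 8 passed, beside 50.0% of all genes, and the median difference was 0.19. With their mean as a covariate the Ccn1 difference was 0.43 (SE 0.06), and the Ccn2 difference passed, at -0.36 (SE 0.10, edgeR adjusted p = 0.0023).

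Estimated transcript counts gave the same picture for the called genes. Ccn1, Apold1, Klf2 and Btg2 each had 1 annotated transcript with counts, Klf4-201 held 99.8% of the Klf4 counts and Ccn2-201 held 96.5% of those of Ccn2, so no member switched transcripts. Ccn1-201 was higher in DBA/2J by 0.47 (edgeR adjusted p = 9.7e-07) and Klf2-201 lower, at -0.37 (adjusted p = 1.9e-07), where 21.3% of 61270 transcripts passed. For Apold1 and Klf4 the transcript counts exceeded the gene counts by more in DBA/2J (median ratios 1.08 and 1.17) than in C57BL/6J (1.0 and 1.07). The strain difference then turned sign, to 0.04 for Apold1 and 0.05 for Klf4, so its direction is not settled for these 2 genes.

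**Figure D2:**
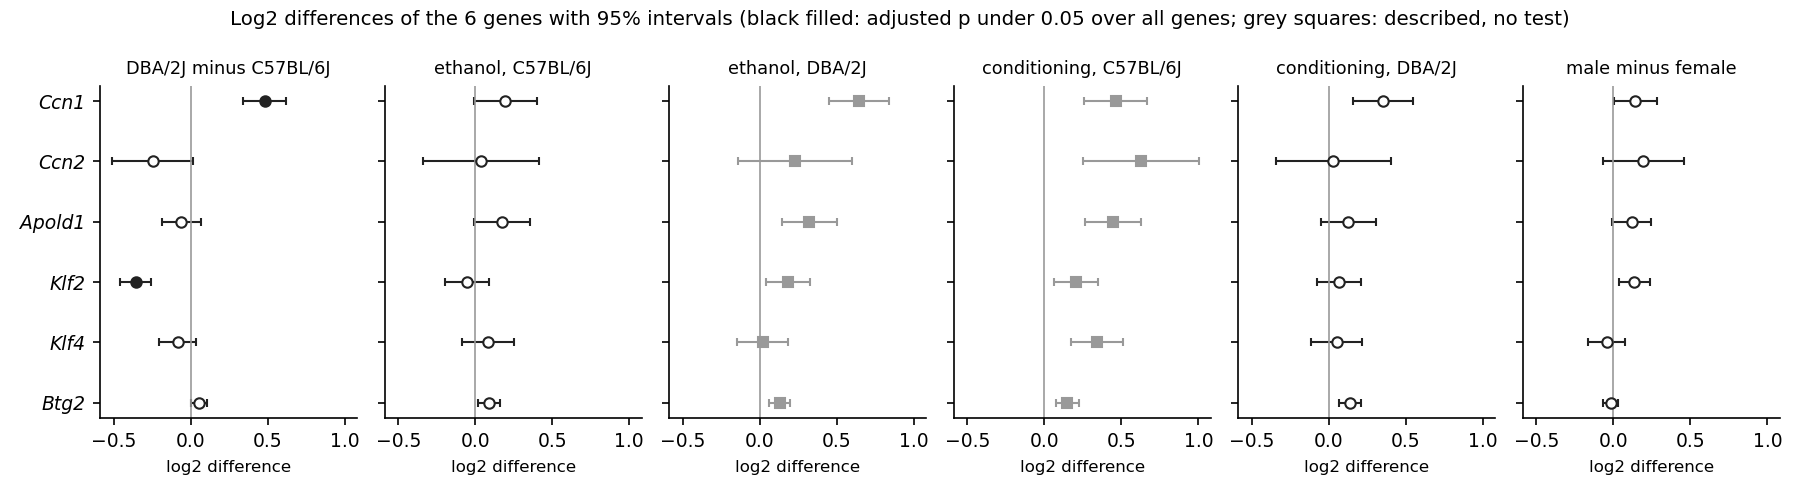
Log2 differences of the 6 genes (points) with 95% intervals (bars) for the strain, ethanol, conditioning and sex comparisons; black filled points passed the threshold over all genes, and grey squares are the comparisons treated as having chosen the genes, shown without a test. Ccn1 (0.48) and Klf2 (-0.36) pass for strain, and no member passes for ethanol in C57BL/6J, conditioning in DBA/2J or sex. The strain value of Ccn1 includes the DBA/2J ethanol libraries, in which its level was high.

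In C57BL/6J no member passed the threshold with ethanol. Ccn1 was 4.54 ± 1.15 CPM (SD, n = 15) after saline and 5.38 ± 1.80 CPM (SD, n = 16) after ethanol, and Apold1 was 7.99 ± 2.30 and 9.17 ± 2.47 CPM. The log2 differences were 0.20 (95% interval -0.01 to 0.40) for Ccn1 and 0.17 (-0.01 to 0.36) for Apold1, and 0.09 (0.01 to 0.16, unadjusted p = 0.022) for Btg2, whose interval alone excluded 0. The others lay between -0.05 for Klf2 and 0.08 for Klf4, and the edgeR adjusted p was 1.0 for each member. The threshold was passed by 0 of 6 members and by 0.0901% of all genes.

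In DBA/2J given ethanol all 6 genes had a positive difference, led by Ccn1. Its levels ran from 4.18 to 6.95 CPM (median 5.47) after saline and from 5.35 to 15.6 CPM (median 7.79) after ethanol, and 11 of 16 ethanol libraries exceeded the highest saline library. The log2 difference was 0.64 (SE 0.10). Apold1 ran from 5.71 to 8.61 CPM (median 7.32) after saline and from 6.41 to 11.5 CPM (median 8.87) after ethanol, with 8 of 16 ethanol libraries above all saline libraries and a difference of 0.32 (SE 0.09). The remaining differences were 0.23 (SE 0.19) for Ccn2, 0.18 (SE 0.07) for Klf2, 0.13 (SE 0.04) for Btg2 and 0.02 (SE 0.08) for Klf4. Ccn1 alone of the 6 passed the threshold, as did 0.295% of all genes. Nothing is read from that count or from the counts of libraries, because this comparison is treated as having chosen the genes. The titles carry numbers in 2 ranges, called here the lower and the higher range. In DBA/2J libraries of the lower range Ccn1 averaged 5.67 CPM after saline and 8.89 CPM after ethanol, and in those of the higher range it averaged 5.23 and 8.61 CPM. Within a range the drug coincides with a letter of the title, in opposite order in the other range, and the labels do not say what either stands for. Conditioning coincides with the letter as well: A and C are conditioned and B and D are not, in both ranges.

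For 5 of the 6 genes the ethanol difference was larger in DBA/2J than in C57BL/6J. Because it rests on the DBA/2J difference, this contrast too is given as a description. The difference between the ethanol differences was largest for Ccn1, 0.45 (SE 0.14), and next for Klf2, 0.24 (SE 0.10), and was between -0.06 and 0.19 for the other 4. No member was among the 0.0100% of genes, 2 in number, that passed.

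The high Ccn1 levels in DBA/2J lay mostly in mice that had been conditioned. In conditioned DBA/2J the 8 saline libraries held 4.61–6.07 CPM (mean 5.55 ± 0.494 SD). The 4 ethanol males held 15.6, 12.9, 11.9 and 7.90 CPM and the 4 ethanol females 13.8, 8.33, 7.78 and 7.40 CPM, so all 8 exceeded every saline library. Without conditioning the ranges overlapped, at 4.18–6.95 CPM after saline (5.35 ± 1.02 SD, n = 8) and 5.35–9.43 CPM after ethanol (6.80 ± 1.38 SD, n = 8). How many of all genes tested separated in this way was not determined. Ethanol in DBA/2J is treated as having chosen the genes, so nothing is read from the separation. The ethanol difference of Ccn1 was 0.94 (SE 0.14) with conditioning and 0.35 (SE 0.14) without.

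The difference between those values was 0.59 for Ccn1 (SE 0.20) and 0.74 for Ccn2 (SE 0.38). The other 4 members lay between -0.10 and -0.02. This contrast splits the libraries whose ethanol difference is treated as having chosen the genes, so it is given as a description. No member passed the threshold, nor did any other gene (0% of 19974 by edgeR, 1115 at an unadjusted p under 0.05, 0 by DESeq2). Nothing is read from these counts for the members. In C57BL/6J the same contrast was -0.10 for Ccn1 and 0% of genes passed there too (497 at an unadjusted p under 0.05, 0 by DESeq2).

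Markers of neocortex and subplate, a list added after values were seen, moved with this contrast. All 8 of them (Tbr1, Rorb, Cux2, Fezf2, Foxp2, Rspo1, Cplx3 and Nxph4) had a positive ethanol by conditioning difference in DBA/2J, with a median of 0.41 and 5 at an unadjusted p under 0.05, although none passed over all genes. Among the 8 conditioned DBA/2J libraries given ethanol, 4 had marker sums within the saline range, 116.6–131.4 CPM, and Ccn1 levels of 7.40–8.33 CPM. The other 4 had marker sums of 147.7–234.5 CPM and Ccn1 levels of 11.9–15.6 CPM. The conditioned saline libraries had marker sums of 110.9–132.9 CPM. Without conditioning the DBA/2J marker medians went the other way, which also enters this contrast. The sums were 118.2–158.3 CPM (median 142.3) after saline and 118.1–164.0 CPM (median 127.6) after ethanol, while mean Ccn1 was higher after ethanol there too. With the marker mean as a covariate the ethanol by conditioning difference of Ccn1 was 0.17 (SE 0.17) and that of Ccn2 -0.03 (SE 0.30), while the ethanol difference of Ccn1 in DBA/2J was 0.57. Tbr1, at a mean of 49.8 CPM, was the largest part of the marker sum. Whether the sum reflects neighbouring tissue was not tested, nor was the part of such tissue in the Ccn1 levels.

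**Figure D3:**
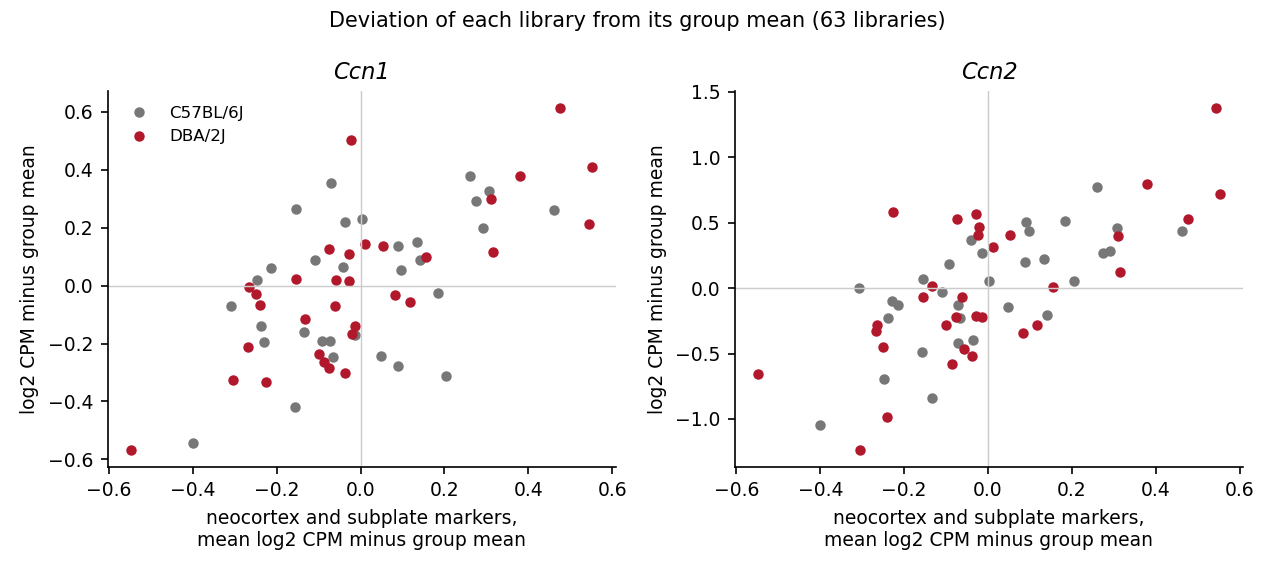
Each point is 1 of 63 libraries, grey for C57BL/6J and red for DBA/2J. The x axis is the mean log2 CPM of 8 neocortex and subplate markers and the y axis the log2 CPM of Ccn1 or Ccn2, each minus its group mean; both genes rise with the markers (Pearson r 0.65 and 0.70).

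Within groups, over the 63 libraries, Ccn1 and Ccn2 followed these markers closely. The neocortex list was added after values were seen, a choice that the adjustment does not cover, so its p-values are descriptive. The correlation of deviations from the group mean was r = 0.65 for Ccn1 (Spearman rho 0.59, permutation p adjusted over 54 relations 0.00018 and 0.00027) and r = 0.70 for Ccn2 (rho 0.66, adjusted permutation p 0.00018 and 0.00027), and 0.63 and 0.64 without the 2 libraries farthest from the median. It was 0.63 and 0.61 for Ccn1 in libraries of the lower and of the higher title numbers, and 0.74 and 0.56 for Ccn2. Btg2 followed them less, with r = 0.43 (rho 0.36, adjusted permutation p 0.020 and 0.048, 0.36 without the 2 farthest), and r was 0.34 for Klf4, 0.17 for Klf2 and 0.14 for Apold1. Ccn1 and Ccn2 correlated negatively with hippocampal neuron markers, with r = -0.46 (rho -0.41, adjusted permutation p 0.0048 and 0.012) and -0.63 (rho -0.62, adjusted permutation p 0.00054 and 0.00027). At the lower and the higher title numbers r was -0.60 and -0.22 for Ccn1, and -0.57 and -0.58 for Ccn2, so for Ccn1 it was weaker in the higher range.

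Vascular markers moved with another set of members. Mural cell markers correlated with Ccn2 at r = 0.63 (rho 0.59), with Klf4 at 0.59 (rho 0.56), with Klf2 at 0.51 (rho 0.53) and with Apold1 at 0.43 (rho 0.46), with adjusted permutation p for r of 0.00027, 0.00018, 0.0014 and 0.0052. Endothelial markers correlated with Ccn2 at r = 0.58, with Klf4 at 0.55 and with Klf2 at 0.42, and with Apold1 at 0.37 (adjusted permutation p 0.00054, 0.0018, 0.019 and 0.054). For Ccn1 the values were 0.20 with mural and 0.14 with endothelial markers, and for Btg2 0.11 and -0.03, with adjusted permutation p from 0.32 to 0.88. Over all libraries Ccn2, Klf4, Klf2 and, for mural markers, Apold1 thus moved with vascular markers, while Ccn1 and Btg2 did not pass. Within strains, r with mural markers was 0.44 in C57BL/6J and 0.05 in DBA/2J for Ccn1, and 0.63 and 0.29 for Apold1, a strain difference that was not tested. The r of Ccn2 was 0.70 with neocortex markers, beside 0.63 with mural and 0.58 with endothelial ones. Meningeal and fibroblast markers gave r = 0.52 for Ccn2, 0.43 for Klf2, 0.43 for Klf4 and 0.35 for Apold1, and 0.05 for Ccn1.

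Conditioning went with higher levels of all 6 genes in C57BL/6J. Without conditioning Ccn1 ran from 3.10 to 6.12 CPM (median 3.98) and with it from 3.51 to 9.56 CPM (median 5.55), and 13 of 15 conditioned libraries lay above the unconditioned median. Ccn2 ran from 4.64 to 14.4 CPM (median 7.12) and from 6.06 to 19.8 CPM (median 9.79), and Apold1 from 5.22 to 10.1 CPM (median 6.98) and from 6.46 to 15.7 CPM (median 9.38). The ranges overlapped for each gene. The conditioned libraries reached further up for every gene but Klf4, which peaked at 8.82 CPM with conditioning and at 9.31 CPM without it.

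The log2 differences in C57BL/6J were 0.63 (SE 0.19) for Ccn2, 0.46 (SE 0.10) for Ccn1, 0.44 (SE 0.09) for Apold1, 0.34 (SE 0.09) for Klf4, 0.20 (SE 0.07) for Klf2 and 0.15 (SE 0.04) for Btg2. None of the 6 passed the threshold over all genes, nor did any other gene (0% of 19974 by edgeR, 786 at an unadjusted p under 0.05, 6 genes by DESeq2), and nothing is read from these counts for the members.

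For 5 of the 6 genes the difference in C57BL/6J was larger in the males, and for Btg2 in the females. In males Ccn2 held 4.73–8.54 CPM in the 8 unconditioned libraries, 12.5, 12.7 and 19.8 CPM in the conditioned saline libraries and 6.70, 16.2, 17.9 and 19.0 CPM in the conditioned ethanol libraries. Thus 6 of 7 conditioned males exceeded every unconditioned male, and the same count held for Ccn1, Apold1 and Klf4. For Klf2 it was 5 of 7. How many of all genes tested reached such counts was not determined. Conditioning in C57BL/6J is treated as having chosen the genes, so nothing is read from the counts. In females no conditioned library exceeded the unconditioned maximum for Ccn1, Ccn2 or Klf4. For Btg2, 7 of 8 conditioned females and 4 of 7 conditioned males exceeded every unconditioned library of their sex. The differences in males were 1.25 (SE 0.28) for Ccn2, 0.78 (SE 0.15) for Ccn1, 0.60 for Apold1, 0.56 for Klf4, 0.34 for Klf2 and 0.12 for Btg2, and in females 0.01, 0.14, 0.29, 0.12, 0.06 and 0.18. The difference between the sexes was not tested. Among the C57BL/6J males, marker sums moved with conditioning: meningeal and fibroblast markers were 42.3–98.1 CPM without it and 68.0–203 CPM with it, mural markers 241–281 and 260–357 CPM, endothelial markers 399–445 and 413–504 CPM, and choroid plexus markers had medians of 124 and 2942 CPM. Neocortex and subplate markers were 104–125 CPM (median 112) without and 109–154 CPM (median 121) with conditioning. Hippocampal neuron markers had medians of 2360 CPM without and 1975 CPM with conditioning. The part of these markers in the differences was not tested. With the mural marker mean as a covariate the C57BL/6J differences were 0.38 for Ccn2, 0.42 for Ccn1, 0.35 for Apold1, 0.23 for Klf4, 0.12 for Klf2 and 0.14 for Btg2.

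**Figure D4:**
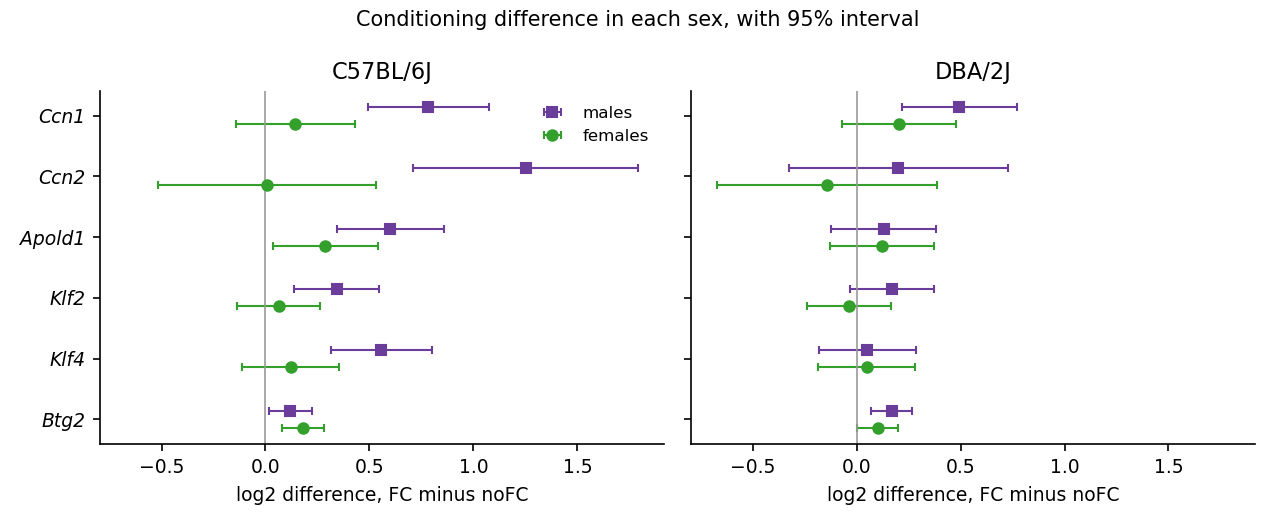
Log2 difference, FC minus noFC, of each gene in males (squares) and females (circles) of each strain, with 95% intervals as bars. In C57BL/6J the male values run from 0.12 to 1.25 and exceed the female values for every gene but Btg2.

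In DBA/2J no member passed with conditioning. These libraries took no part in the choice by conditioning in C57BL/6J, but they did in the choice by ethanol. The p-values below, above all that of Ccn1, are therefore not independent of the choice of genes. Ccn1 ran from 4.18 to 9.43 CPM (median 5.97) without conditioning and from 4.61 to 15.6 CPM (median 6.74) with it, a log2 difference of 0.35 (SE 0.10, unadjusted p = 0.00095, edgeR adjusted p = 1.0). Btg2 ran from 20.3 to 26.8 CPM (median 23.1) and from 22.0 to 30.6 CPM (median 25.3), a difference of 0.13 (SE 0.04, unadjusted p = 0.00045, adjusted p = 1.0). Apold1 differed by 0.13, Klf2 by 0.07, Klf4 by 0.05 and Ccn2 by 0.03. Of all genes 0% passed (670 at an unadjusted p under 0.05, 0 by DESeq2). For Ccn1 the difference was 0.64 (SE 0.14) among ethanol libraries and 0.05 (SE 0.14) among saline libraries.

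The conditioning difference was smaller in DBA/2J than in C57BL/6J for all 6 genes, which is given as a description because it rests on the C57BL/6J difference. DBA/2J minus C57BL/6J was -0.60 (SE 0.27) for Ccn2, -0.32 (SE 0.13) for Apold1, -0.29 (SE 0.12) for Klf4, -0.14 for Klf2, -0.11 for Ccn1 and -0.02 for Btg2. Of all genes 0% passed for this contrast (725 at an unadjusted p under 0.05 in edgeR, 0 by DESeq2).

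Averaged over both strains, Ccn1 and Btg2 were among the 4 genes past the threshold with conditioning (0.0200% of those tested), next to the neuronal activity genes Fos and Arc. Ccn1 was 5.12 ± 1.48 CPM (SD, n = 32) without and 7.02 ± 2.97 CPM (SD, n = 31) with conditioning, a log2 difference of 0.41 (SE 0.07). Btg2 was 22.6 ± 1.77 CPM (n = 32) and 25.0 ± 2.04 CPM (n = 31), a difference of 0.14 (SE 0.03). Fos differed by 0.38 and Arc by 0.27. This comparison was added after the values were seen and contains the C57BL/6J libraries, so it is a description. The difference was 0.28 for Apold1, 0.33 for Ccn2, 0.19 for Klf4 and 0.13 for Klf2, none past the threshold in edgeR over all libraries. Apold1 was also called by DESeq2, and by edgeR without the conditioned C57BL/6J ethanol male lowest in Apold1 (0.30). In libraries of the lower title numbers the differences were 0.35 for Ccn1 and 0.17 for Btg2, and in those of the higher numbers they were 0.45 and 0.11, with 0 members past the threshold in either range. In both ranges the conditioned libraries carry the letters A and C, so conditioning cannot be told apart from the letter.

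Sex alone moved no member past the threshold, which 0.200% of genes passed. Klf2 was nearest, higher in males by 0.14 (SE 0.05, unadjusted p = 0.011, edgeR adjusted p = 0.72), and 23 of 31 male libraries lay above the female median. The ethanol difference by sex was 0.39 for Ccn2 (SE 0.27) and 0.20 for Ccn1 (SE 0.14) with adjusted p of 0.93, and 0% of genes passed by edgeR (1011 at an unadjusted p under 0.05, 0 by DESeq2). The 2 ranges of title numbers differed here. In the lower range 6 members were positive and 41 of 20598 genes passed, and in the higher range 1 member was positive and 0 of 19761 genes passed. No member passed in either range.

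The 6 genes fell into overlapping sets by how they varied within groups. Klf2 and Klf4 moved together most closely, with r = 0.70 over 63 libraries (rho 0.72, permutation p adjusted over 15 pairs 7.5e-05 for both, 0.66 without the 2 farthest libraries). Ccn2 and Klf4 gave r = 0.62 (rho 0.55, adjusted permutation p 0.00015 and 0.00025, 0.55 without the 2 farthest) and Ccn1 and Ccn2 r = 0.60 (rho 0.60, adjusted permutation p 7.5e-05 for both, 0.58 without the 2 farthest). In libraries of the lower and of the higher title numbers these r were 0.70 and 0.70, 0.69 and 0.63, and 0.63 and 0.52. Btg2 stood apart from Apold1 (r = -0.01) and from Klf2 (r = 0.07), and its closest member was Ccn1 (r = 0.44, rho 0.38, adjusted permutation p 0.0088 and 0.016, 0.34 without the 2 farthest). The r of Ccn1 with Btg2 was 0.18 in C57BL/6J and 0.63 in DBA/2J, and that of Ccn1 with Klf4 was 0.61 and 0.23. These strain differences in r were not tested.

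**Figure D5:**
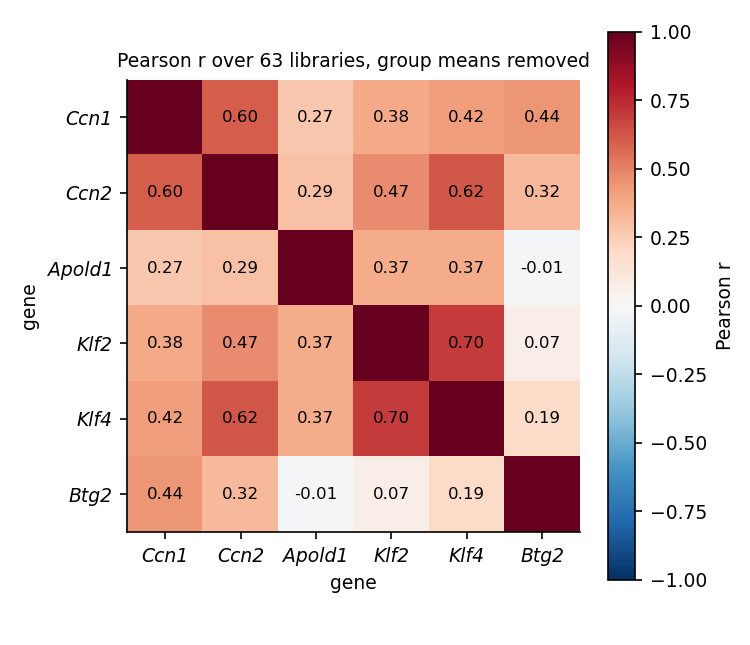
Pearson r between the members over 63 libraries after removing each group's mean; both axes are the 6 genes and the colour and number give r. Klf2 with Klf4 (0.70), Ccn2 with Klf4 (0.62) and Ccn1 with Ccn2 (0.60) are the darkest cells off the diagonal, and Btg2 is pale against Apold1 and Klf2.

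Among the 19974 genes tested, the 3 whose deviations were most like those of each member were found by Pearson r over the 63 libraries. Genes without a symbol, and symbols of Gm with digits or ending in Rik, were left out of this search. For Ccn1 they were Garnl3 (r = 0.76), Doc2a (0.73), a calcium sensor of transmitter release, and Kcnt1 (0.72), a sodium-activated potassium channel. For Ccn2 they were C77080 (0.75), the collagen gene Col5a1 (0.74) and Hivep1 (0.73). For Apold1 they were Adra2a (0.66), an adrenergic receptor gene, Baiap3 (0.65) and Slc18a3 (0.63), the last at a mean of only 0.129 CPM. Klf2 was most like Slc2a1 (0.72), the glucose transporter of the blood-brain barrier, then Klf4 and Tsc22d3 (0.67), a glucocorticoid-induced gene. Klf4 was most like Klf2, Tmem204 (0.65) and Slc2a1 (0.64). Btg2 was most like St3gal1, Chrna4 and Kcnf1 (each 0.64).

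No relative of the members in the same gene families passed the threshold for ethanol or conditioning. Of the other CCN genes 2 of 4 were expressed highly enough to test and neither passed for strain, ethanol or conditioning. Of 12 other Kruppel-like factors tested, none passed for ethanol or conditioning, and 4 passed between strains, a smaller share than the 50.0% of all genes: Klf9 (-0.33), Klf10 (-0.25) and Klf13 (-0.24) were lower in DBA/2J and Klf5 (0.32) higher. Of 4 other BTG and TOB genes, Btg3 was lower in DBA/2J (-0.26) and Tob2 higher in males (0.16). Median conditioning differences in C57BL/6J were 0.03 for the other Kruppel-like factors and 0.03 for the BTG and TOB genes, beside 0.00 over all genes.

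Gene lists of the pathways that induce the members moved little with ethanol. Of 19 other YAP and TEAD targets tested, 0 passed for ethanol in DBA/2J (15 positive, median 0.03) and 0 for conditioning in C57BL/6J (13 positive, median 0.03). Of 12 cytoskeletal targets of serum response factor, 0 passed for either (5 and 9 positive, medians -0.02 and 0.08). Of 9 other endothelial genes that respond to flow, 8 were positive for ethanol in DBA/2J and 8 for conditioning in C57BL/6J, with medians of 0.03 and 0.13 and 0 past the threshold in each. The median over all genes was 0.00 for both comparisons.

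Some early genes of neurons fell after ethanol. All 16 tested had a negative difference in both strains, with medians of -0.20 in C57BL/6J and -0.14 in DBA/2J, beside 0.00 over all genes in both. Of these Arc (-0.45), Egr2 (-0.53), Trib1 (-0.29) and Dusp5 (-0.28) fell in C57BL/6J and Arc (-0.49) fell in DBA/2J, where 0.0901% and 0.295% of all genes passed. With conditioning averaged over both strains 14 of the 16 were positive, with a median of 0.11. Of 20 other early genes found in many cell types, Ier3 fell in C57BL/6J (-0.49) and Gadd45g rose in DBA/2J (0.26) with ethanol. Of 15 genes that glucocorticoids induce, Arrdc2 (0.43), Nfkbia (0.22) and Ddit4 (0.20) rose with ethanol in DBA/2J, beside 0.295% of all genes called in either direction, and Arrdc2 (0.59) and Nfkbia (0.40) were the 2 genes called for a difference in the ethanol difference between strains.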

How the data were processed

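Dorsal hippocampus RNA was sequenced from stranded poly(A) libraries as 75-base single reads, per the labels' protocols. The submitters' processing notes name fastp, HISAT2, featureCounts, Salmon and DESeq2 and the GRCm38 build, with versions not given in the sources used here. The authors deposited raw gene counts and, for transcripts, estimated counts, which were rounded before testing.

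Gene counts were tested in edgeR 4.0.16 (R 4.3.3) with quasi-likelihood tests, TMM scaling and filterByExpr at a minimum count of 10, in 1 model over 16 groups. P-values were adjusted by Benjamini-Hochberg over 19974 genes and called under 0.05. Log2 CPM used a prior count of 2. Correlations used deviations from group means and 1e+05 permutations. DESeq2 1.42.0 was an alternative, with other scalings, marker covariates, title number ranges and left-out libraries; fits without a library kept the full fit's dispersion. The tests were checked on simulated data. No 2 libraries of a group agreed within sampling noise (chi-square per degree of freedom at least 3.61). Symbols were matched for 55141 of 55401 identifiers.

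The members and lists were chosen with earlier results of these data known. All 6 members were named, with the 3 genes most like each and list genes past the threshold. The neocortex list, the mural and neocortex covariates, the conditioning difference over both strains and the strain difference in saline libraries were added after values were seen.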

Additional observations from a re-analysis of the deposited data

Results flagged for a closer look

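In 7 of 90 combinations of gene and group of 4 libraries, spread over 15 groups tested, 1 library stood apart from the other 3 by Dixon's criterion at the 95% level; chance gives about 5%. Ccn1 was 13.8 CPM in 1 conditioned DBA/2J female given ethanol, and 7.40–8.33 CPM in the others. The same library of the unconditioned C57BL/6J saline males stood apart for both Ccn2, at 8.54 CPM against 5.11–5.47, and Klf2, at 14.8 CPM against 11.6–12.1. Ccn2 was 10.6 CPM in 1 unconditioned DBA/2J saline male, against 4.96–5.18 CPM. Klf4 stood apart in 3 groups: at 5.01 CPM against 6.17–6.33 in 1 unconditioned C57BL/6J saline female, at 9.31 CPM against 5.87–6.42 in 1 unconditioned C57BL/6J ethanol female, and at 5.48 CPM against 6.37–6.51 in 1 conditioned DBA/2J ethanol male.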

How the results depend on the processing

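Ccn1 and Klf2 passed between strains under every alternative run for this comparison, which leaves out the title number as a replicate block. With the choroid plexus covariate 4 members passed between strains, and DESeq2 called 2 members for ethanol in DBA/2J and 2 (Ccn1, Apold1) for conditioning in C57BL/6J, comparisons described without a test. Over both strains 0 members passed for conditioning in the libraries of lower title numbers and 0 in those of higher numbers, each with fewer libraries. Leaving out 1 library gave 0 to 2 members for conditioning in C57BL/6J: 2 without the conditioned ethanol male lowest in Apold1, and 1 (Apold1) without the unconditioned saline or ethanol female highest in Apold1 in its group or the conditioned saline female lowest in it.

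Signs turned only for members that did not pass, and the cause was not tested. For strain, Apold1 was 0.040 and Klf4 0.050 from transcript sums, 0.0074 and 0.00056 at higher numbers, and Apold1 0.0063 with the mural covariate. For ethanol in C57BL/6J, Klf2 was 0.050 at lower numbers, Ccn2 -0.020 and Klf4 -0.0028 at higher numbers, and Ccn2 -0.046 with the neocortex covariate. For ethanol in DBA/2J, Ccn2 was -0.088 and Klf4 -0.096 at higher numbers, -0.024 and -0.063 with the endothelial covariate, and Klf4 -0.024 with the mural and -0.010 with the neocortex covariate. Ccn2 for conditioning in DBA/2J was -0.20 at lower numbers and -0.065 with the choroid plexus covariate. Ccn1 for ethanol by sex was -0.30 at higher numbers, and Ccn2 for ethanol by conditioning in DBA/2J -0.025 with the neocortex covariate. Ccn2 for ethanol by sex ranged from -0.46 to 1.08 over the alternatives. Leaving out 1 library gave -0.043 to 0.20 for Ccn2 conditioning in DBA/2J, -0.037 to 0.10 for Ccn2 ethanol in C57BL/6J and -0.027 to 0.053 for Klf4 ethanol in DBA/2J.

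Title numbers were not taken to pair libraries, since the labels do not say that they do and only 45 of 93 same-number pairs had deviations correlated over 0.1 (-0.68 to 0.66, median 0.073). For other numbers of the same strain and sex it was 92 of 279 (median -0.017), and 28 of 63 libraries correlated best with their own number, a hint of pairing from the data. With the number as a replicate block, the difference of Ccn1 was 0.63 for ethanol in DBA/2J and 0.41 for conditioning over both strains. Libraries that share a number are all of the same strain and sex, so the block could not be used for the strain and sex differences. Their p-values treat libraries of the same number as independent, and would be too small if these are alike.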
